A study of Mus musculus with 9 samples.

Results

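The interferon regulatory factors (IRFs) are a family of transcription factors that share a DNA-binding domain and read GAAA repeats in the promoters of interferon genes and of the genes that interferons induce. They were followed across 9 RNA-seq libraries made from macrophages that had been grown out of mouse bone marrow. The members are the genes whose symbol in the deposited count table is Irf1, Irf2, Irf3, Irf4, Irf5, Irf7, Irf8 or Irf9, which makes 8 of 13593 genes. All 8 passed the filter on low counts.

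The marrow came from wild-type C57BL/6 mice aged 6 weeks. It was kept for 7 days in medium with 15% supernatant of L929 cells, a fibroblast line that secretes the macrophage growth factor. The macrophages then received CCL26, CX3CL1 or bovine serum albumin (BSA, the protein control) at 4 nM for 4 h, with 3 libraries in each group. According to the title, CX3CL1 and CCL26 bind the same receptor, CX3CR1, so the design asks what each does to macrophages and whether they differ. Nothing in the labels ties a replicate to its own animal or culture. The p-values therefore speak of spread among libraries that may differ by technique alone.

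In macrophages the IRFs work in layers. IRF3, IRF5 and IRF7 lie latent in the cytoplasm until kinases below pattern-recognition receptors phosphorylate them, and then switch on type I interferon and inflammatory cytokine genes. IRF9 joins STAT proteins downstream of the interferon receptor to form ISGF3, which turns on interferon-stimulated genes. IRF1 drives genes of the interferon-gamma response, and IRF2 binds many of the same sites. IRF8 and IRF4 set myeloid and lymphoid identity together with PU.1 and other partners.

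Total counts ran from 16923982 to 23198324 per library. CX3CL1 replicate 1 stood apart: 1193 of its genes were at 0 counts, where the other 8 libraries had 80 to 170 such genes, and its mean correlation with the other libraries was 0.899, against 0.970 to 0.974. Standard errors of the IRF genes were larger in the fit that held it, also for CCL26 against BSA, where it is in neither group. Each result is therefore given in the fit of all 9 libraries (12915 genes tested) and in a fit of the 8 libraries without it (13245 genes tested). Both use edgeR's quasi-likelihood test with Benjamini-Hochberg adjustment over all genes tested, and a gene was called when its adjusted p was under 0.05. Levels are in CPM, counts scaled to 1000000 per library. Each library total was first multiplied by edgeR's TMM scaling factor, 0.849 for CX3CL1 replicate 1 and 0.999 to 1.05 for the others. All 8 listed macrophage markers were in the table. Marker sums, here and below, are scaled to 1000000 on plain totals, without the TMM factor. The macrophage sum was 24700 to 25000 CPM in CCL26 libraries, 28100 to 35600 in CX3CL1 libraries and 29300 to 29800 in BSA libraries.

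With CCL26, 5 of the 8 IRF genes (Irf1, Irf7, Irf9, Irf2 and Irf5) were higher in every CCL26 library than in every BSA library, and Irf3, Irf8 and Irf4 overlapped. Of all genes tested, 16.6% had every CCL26 library above every BSA library. In the fit of all 9 libraries 1 IRF gene, Irf1, was called higher and none lower, where 0.387% of all genes were called higher and 0.0465% lower. An unadjusted p under 0.05 was found for 3 IRF genes and for 792 of the 12915 genes tested. In the fit of 8 libraries the same 5 genes that did not overlap were called higher and none lower, where 9.74% of all genes were called higher and 9.26% lower. The median log2 fold change over the 8 IRF genes was 0.36 in both fits, and over all genes tested 0.00 with 9 libraries and 0.01 with 8. In bulk RNA, more cells that express a gene and more of its RNA per cell cannot be told apart.

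**Figure D1:**
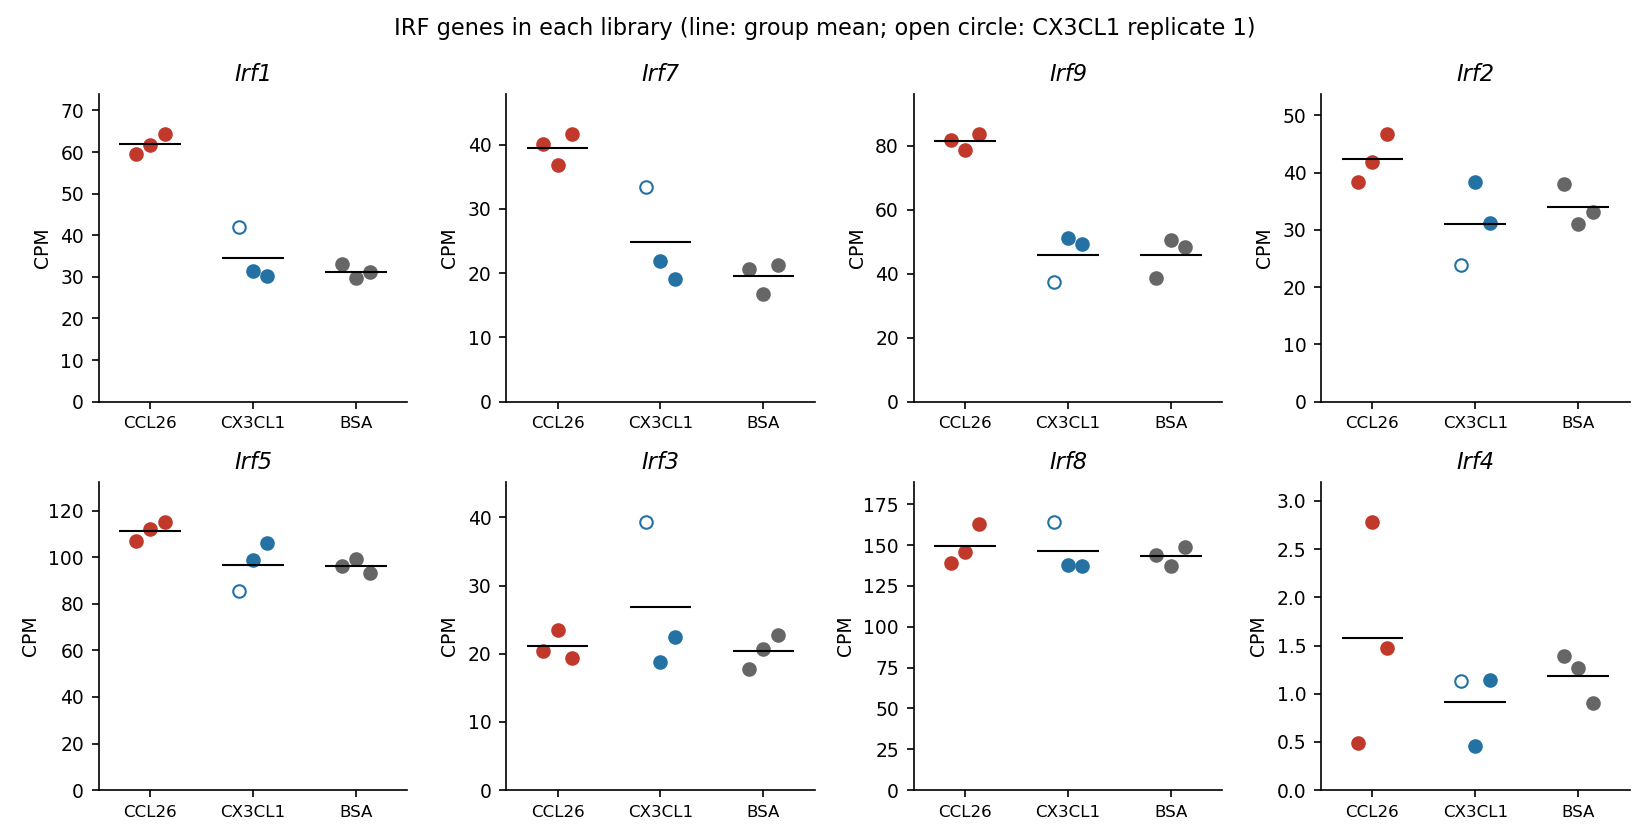
Each panel plots the level of an IRF gene in CPM (linear axis from 0) in the 3 CCL26, 3 CX3CL1 and 3 BSA libraries; lines are group means and the open circle is CX3CL1 replicate 1. For Irf1, Irf7, Irf9, Irf2 and Irf5 all CCL26 points lie above all BSA points. In CPM on TMM-scaled totals, the open circle is the CX3CL1 point farthest from its group mean for every gene but Irf4.

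Irf1, the activator of the interferon-gamma response and itself a gene that interferons induce, rose with CCL26. It stood at 59.5, 61.6 and 64.4 CPM in CCL26 libraries, at 42.0, 31.5 and 30.3 CPM in CX3CL1 libraries and at 33.0, 29.6 and 31.1 CPM in BSA libraries. The CCL26 libraries were close together and far above both other groups, while 2 of the 3 CX3CL1 libraries lay within the BSA range and CX3CL1 replicate 1 lay above it. The log2 fold change for CCL26 against BSA was 0.99 (SE 0.149, edgeR adjusted p = 0.0344) with 9 libraries and 0.99 (SE 0.0794, edgeR adjusted p = 9.74e-10) with 8. The call with all 9 libraries was close to the threshold. It was lost with upper quartile scaling (adjusted p = 0.0558) and when any CCL26 or BSA library or CX3CL1 replicate 2 was left out singly (adjusted p from 0.0579 to 0.279). Without CX3CL1 replicate 1 it held in all 9 edgeR fits, 8 of which also left out another library.

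Irf7, the member that interferon itself induces and that amplifies the type I interferon response, differed by about as much on the log2 scale. Its level was 40.1, 36.8 and 41.7 CPM in CCL26 libraries, 33.4, 21.9 and 19.1 CPM in CX3CL1 libraries and 20.7, 16.8 and 21.2 CPM in BSA libraries. No CCL26 library came down to the level of any other library, and CX3CL1 replicate 1 was nearest to them. CCL26 and BSA differed by a log2 fold change of 1.01 (SE 0.213, edgeR adjusted p = 0.137) with 9 libraries, which missed the threshold, and 1.02 (SE 0.106, edgeR adjusted p = 9.09e-08) with 8.

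Irf9, the DNA-binding subunit of ISGF3, had 81.8, 78.5 and 83.7 CPM in CCL26 libraries, 37.4, 51.2 and 49.1 CPM in CX3CL1 libraries and 38.7, 50.5 and 48.2 CPM in BSA libraries. The CX3CL1 and BSA libraries covered nearly the same range, and every CCL26 library lay well above it. Its log2 fold change for CCL26 against BSA was 0.83 (SE 0.159, edgeR adjusted p = 0.0893) with 9 libraries and 0.83 (SE 0.0815, edgeR adjusted p = 3.28e-08) with 8. The estimate was the same in both fits, and only the 8-library fit called it.

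Irf2 and Irf5 had smaller differences. Irf2, which binds the sites that IRF1 binds and can repress there, had 38.4, 41.8 and 46.8 CPM in CCL26 libraries, 23.8, 38.3 and 31.2 CPM in CX3CL1 libraries and 38.0, 31.1 and 33.1 CPM in BSA libraries. The lowest CCL26 library and the highest BSA library were almost level. For CCL26 against BSA, the log2 fold change was 0.31 (SE 0.185, edgeR adjusted p = 0.984) with 9 libraries and 0.32 (SE 0.0996, edgeR adjusted p = 0.0268) with 8. The call with 8 was lost when BSA replicate 2 (adjusted p = 0.148), BSA replicate 3 (0.0897), CCL26 replicate 2 (0.0529) or CCL26 replicate 3 (0.0949) was also left out.

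Irf5, which acts below Toll-like receptors on inflammatory cytokine genes, had 107, 112 and 115 CPM in CCL26 libraries, 85.3, 98.6 and 106 CPM in CX3CL1 libraries and 96.4, 99.2 and 93.1 CPM in BSA libraries. The groups were separate for CCL26 and BSA, by a margin that was small next to the level. For CCL26 against BSA, the log2 fold change was 0.21 (SE 0.116, edgeR adjusted p = 0.964) with 9 libraries and 0.21 (SE 0.0572, edgeR adjusted p = 0.0098) with 8. The call with 8 was lost when BSA replicate 3 was also left out (adjusted p = 0.059). Of the exon bases of Irf5, 14.15% are shared with Tnpo3 on the opposite strand, and the strand setting used in counting is not stated. Reads of the 2 genes may therefore not be separated.

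Irf3, the kinase-activated factor that is usually present before stimulation, had 20.4, 23.5 and 19.4 CPM in CCL26 libraries, 39.3, 18.8 and 22.4 CPM in CX3CL1 libraries and 17.7, 20.7 and 22.8 CPM in BSA libraries. Apart from CX3CL1 replicate 1, which was higher than any other library, the groups overlapped throughout. CCL26 and BSA differed by a log2 fold change of 0.05 with 9 libraries (95% interval -0.54 to 0.64, edgeR adjusted p = 1) and 0.06 with 8 (95% interval -0.19 to 0.30, edgeR adjusted p = 0.817).

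Irf8, the factor that commits precursors to the monocyte and macrophage lineage, had 139, 146 and 163 CPM in CCL26 libraries, 164, 138 and 137 CPM in CX3CL1 libraries and 144, 137 and 149 CPM in BSA libraries. The ranges lay over each other. For CCL26 against BSA, the log2 fold change was 0.06 with 9 libraries (95% interval -0.22 to 0.33, edgeR adjusted p = 1) and 0.06 with 8 (95% interval -0.06 to 0.18, edgeR adjusted p = 0.55). A log2 difference of the size seen for Irf1 lies outside both intervals.

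Irf4, known from lymphocytes and from alternatively activated macrophages, was barely measured. It had 11, 58 and 27 counts in CCL26 libraries, 17, 8 and 27 counts in CX3CL1 libraries and 27, 25 and 16 counts in BSA libraries. These are 0.488, 2.78 and 1.47 CPM with CCL26, 1.13, 0.463 and 1.14 CPM with CX3CL1 and 1.39, 1.27 and 0.906 CPM with BSA. The highest and nearly the lowest value both came from CCL26 libraries. CCL26 and BSA differed by a log2 fold change of 0.40, with a 95% interval of -1.02 to 1.83 with 9 libraries (edgeR adjusted p = 1) and of -0.70 to 1.505 with 8 (edgeR adjusted p = 0.681). Without CCL26 replicate 2 the value with the other 8 libraries was -0.29. A log2 rise of the size seen for Irf1 lies inside both intervals.

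With CX3CL1, no IRF gene was called in either fit and none of the 8 had every CX3CL1 library above every BSA library; 4.77% of all genes did. With 9 libraries 0% of all genes were called higher and 0% lower by edgeR, with 405 genes and 0 IRF genes at an unadjusted p under 0.05. With 8 libraries 0.0227% were called higher and 0.31% lower. DESeq2 on all 9 libraries called 0 genes, and limma-voom with library quality weights called 29 genes, 0 of them IRF genes. With 8 libraries, the log2 fold change for CX3CL1 against BSA was -0.01 for Irf1 (95% interval -0.20 to 0.17) and 0.07 for Irf7 (-0.18 to 0.32). It was 0.13 for Irf9 (-0.06 to 0.32) and -0.06 for Irf8 (-0.19 to 0.07). These intervals leave out a rise of the size that Irf1, Irf7 and Irf9 showed with CCL26. They rest on replicates 2 and 3 alone in the CX3CL1 group. In the fit of 9 libraries the values farthest from 0 were 0.39 for Irf3, -0.38 for Irf4 and 0.34 for Irf7 (edgeR adjusted p = 0.711, 0.793 and 0.711). Without CX3CL1 replicate 1 they were 0.02 for Irf3, -0.53 for Irf4 and 0.07 for Irf7, none of them called.

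Set directly against each other at the same dose and time, CCL26 and CX3CL1 differed in Irf1, Irf7 and Irf9 once CX3CL1 replicate 1 was left out. That leaves only replicates 2 and 3 in the CX3CL1 group. The library left out was the CX3CL1 library nearest to the CCL26 libraries for Irf1 (42.0 CPM) and Irf7 (33.4 CPM). For Irf9 it was the farthest from them (37.4 CPM). Every CCL26 library was above every CX3CL1 library for Irf1, Irf7, Irf9, Irf2 and Irf5, as was the case for 12.9% of all genes. For Irf2 and Irf5 the groups almost touched. The lowest CCL26 and highest CX3CL1 libraries had 38.4 and 38.3 CPM of Irf2, and 107 and 106 CPM of Irf5. With 9 libraries edgeR called 0 IRF genes, where 0.395% of all genes were called higher with CCL26 and 0.0155% lower. An unadjusted p under 0.05 was found for 4 IRF genes and for 1484 of the 12915 genes tested. DESeq2 called 2 IRF genes among 251 genes. With 8 libraries 3 IRF genes were called higher and none lower, where 5.47% of all genes were called higher and 4.64% lower.

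Between CCL26 and CX3CL1, the log2 fold change of Irf1 was 0.84 (SE 0.149, edgeR adjusted p = 0.0673) with 9 libraries and 1.003 (SE 0.0902, edgeR adjusted p = 1.31e-08) with 8. That of Irf7 was 0.67 (SE 0.212, edgeR adjusted p = 0.423) with 9 and 0.95 (SE 0.12, edgeR adjusted p = 3.25e-06) with 8. That of Irf9 was 0.82 (SE 0.159, edgeR adjusted p = 0.0943) with 9 and 0.70 (SE 0.0916, edgeR adjusted p = 5.5e-06) with 8. Irf2 at 0.29 (edgeR adjusted p = 0.107) and Irf5 at 0.12 (edgeR adjusted p = 0.265) missed the threshold with 8 libraries. Irf3 changed sign between the fits, at -0.34 with 9 libraries and 0.04 with 8, neither of them called. The 3 comparisons share libraries: each group enters a pair of them.

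**Figure D2:**
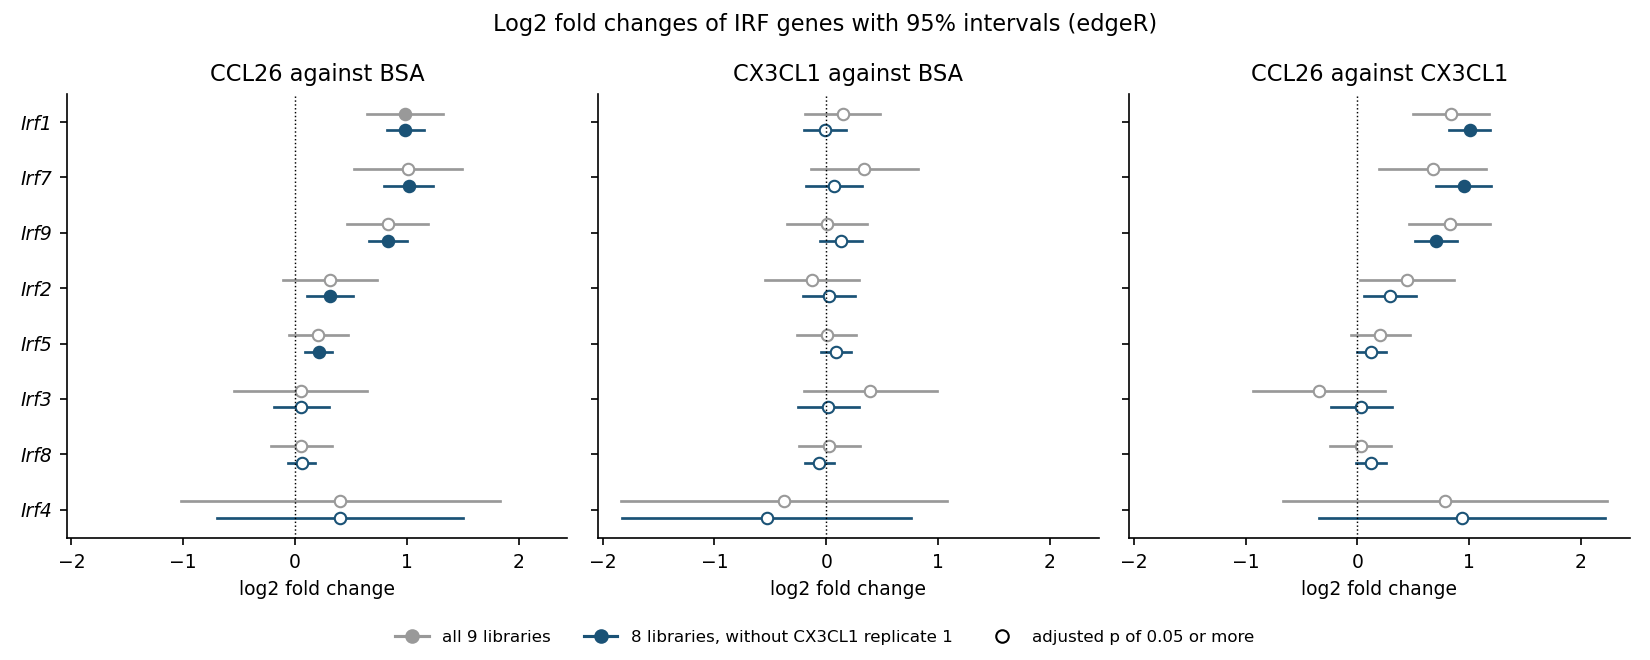
Log2 fold changes (x axis) of the 8 IRF genes (rows) for CCL26 against BSA, CX3CL1 against BSA and CCL26 against CX3CL1, with 95% intervals; grey is the fit of all 9 libraries, blue the fit of 8, and filled points have an edgeR adjusted p under 0.05. The points of the CCL26 against BSA panel are at the same place in both fits and the intervals are narrower with 8 libraries, whereas with CX3CL1 the points move as well.

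Among genes, the level can be compared only per length, so CPM was divided by the kilobases of exon of each gene. That length merges the exons of all annotated transcripts, 2905 bases for Irf5 and 7055 for Irf8, and the order depends on it. In CPM alone Irf8 was above Irf5 in all 3 groups, with means of 144 and 96.3 in BSA libraries. Reads of Irf5 and Tnpo3 may not be separated, which also limits the sums below and the scale per kb. On that scale Irf5 led in all 3 groups, at 38.3 ± 1.4 CPM per kb in CCL26 libraries, 33.2 ± 3.58 in CX3CL1 libraries and 33.1 ± 1.04 in BSA libraries (SD, n = 3 each). Irf8 came next, at 21.2 ± 1.8, 20.7 ± 2.18 and 20.3 ± 0.815 CPM per kb in CCL26, CX3CL1 and BSA libraries. In BSA libraries the order went on with Irf9 (8.51 ± 1.16), Irf1 (7.86 ± 0.424), Irf3 (5.92 ± 0.747), Irf7 (5.18 ± 0.635), Irf2 (4.6 ± 0.479) and Irf4 (0.242 ± 0.0512). Of these neighbours, Irf9 and Irf1, Irf3 and Irf7, and Irf7 and Irf2 overlapped between libraries. In CCL26 libraries Irf1 (15.6 ± 0.618) and Irf9 (15.1 ± 0.487) overlapped each other. Irf7 (10.5 ± 0.665) stood clear of Irf3 (6.13 ± 0.611) and Irf2 (5.72 ± 0.569), which overlapped. Irf4 was again last at 0.322 ± 0.235. In CX3CL1 libraries Irf1 (8.71 ± 1.61), Irf9 (8.53 ± 1.38), Irf3 (7.8 ± 3.19), Irf7 (6.58 ± 2.01) and Irf2 (4.21 ± 0.975) each overlapped the next, ahead of Irf4 at 0.186 ± 0.0789.

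Added over the 8 genes, the level was 109, 112 and 118 CPM per kb in CCL26 libraries, 93.9, 87.5 and 88.6 in CX3CL1 libraries and 85.2, 85.4 and 86.9 in BSA libraries. Irf1 made up 13.8% of that sum in every CCL26 library, 8.61% to 11.2% in CX3CL1 libraries and 8.73% to 9.74% in BSA libraries. Irf8 made up 18.1% to 19.7% in CCL26 libraries, 21.9% to 24.8% in CX3CL1 libraries and 22.8% to 24.3% in BSA libraries. The balance between members that share sites differed as well. The ratio of Irf1 to Irf2 per length was 2.56 to 2.88 in CCL26 libraries and 1.62 to 1.77 in BSA libraries, and in CX3CL1 libraries it ran from 1.53 to 3.28, with the highest in CX3CL1 replicate 1. The ratio of Irf7, the inducible member of the latent pair, to Irf3, the standing one, was 1.43 to 1.96 in CCL26 libraries, 0.775 to 1.06 in CX3CL1 libraries and 0.743 to 1.06 in BSA libraries. These sums and ratios are descriptions of the values above and carry no test.

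**Figure D3:**
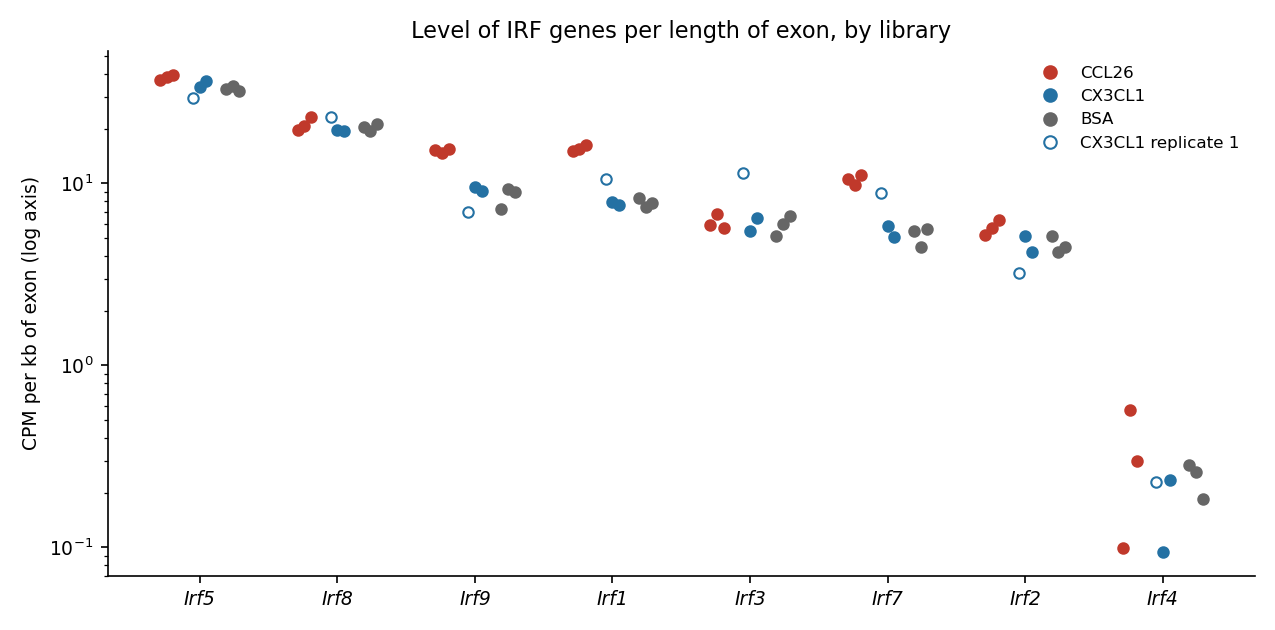
The level of each IRF gene in CPM per kb of exon (log axis) by library, in the order of their mean in BSA libraries; red is CCL26, blue CX3CL1, grey BSA and the open circle CX3CL1 replicate 1. Irf5 and Irf8 are highest in all groups and Irf4 is far below the rest, and the CCL26 points of Irf9, Irf1 and Irf7 sit above the other groups.

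The promoter stretches of the 3 genes with the largest differences with CCL26 (Irf1, Irf7 and Irf9) are shown with those of Irf2 and Irf8. Among the members, only Irf1, Irf2 and Irf8 had a window with a motif match. The stretches let members called with CCL26 be set beside Irf8, which was not. The sequences are RefSeq's for GRCm38.p6, and all 8 genes matched, with 11 windows in all. Each window runs from 250 bases before to 50 after a RefSeq start, which need not be the gene start in GENCODE M21. Both strands were searched for the interferon-stimulated response element (ISRE, GAAANNGAAA), the gamma-activated site that STAT dimers bind (GAS, TTCNNNGAA) and the NF-kB motif (kB). Capitals mark matches, and no match overlapped another.
Irf1 promoter, chr11:53769884-53770013, plus strand: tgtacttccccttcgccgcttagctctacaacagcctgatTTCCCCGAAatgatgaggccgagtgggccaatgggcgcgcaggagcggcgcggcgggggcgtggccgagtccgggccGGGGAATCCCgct
Irf2 promoter, chr8:46739495-46739744, plus strand: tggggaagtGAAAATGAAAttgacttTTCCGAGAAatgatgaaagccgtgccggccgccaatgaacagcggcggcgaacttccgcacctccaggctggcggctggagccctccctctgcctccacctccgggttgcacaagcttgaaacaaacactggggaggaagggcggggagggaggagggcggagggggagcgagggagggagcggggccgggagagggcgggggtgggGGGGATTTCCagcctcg
Irf7 promoter, chr7:141266425-141266544, minus strand: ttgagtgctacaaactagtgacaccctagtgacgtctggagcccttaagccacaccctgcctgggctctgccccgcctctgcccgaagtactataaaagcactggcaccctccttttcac
Irf8 promoter, chr8:120736147-120736253, plus strand: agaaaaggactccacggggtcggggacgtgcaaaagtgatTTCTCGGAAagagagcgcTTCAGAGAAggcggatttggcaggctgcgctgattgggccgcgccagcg
Irf9 promoter, chr14:55603865-55603984, plus strand: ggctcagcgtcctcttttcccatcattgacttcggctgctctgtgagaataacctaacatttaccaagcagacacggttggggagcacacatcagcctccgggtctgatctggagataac

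In Irf1 the matches were a GAS at -90 to -82 and a kB motif at -13 to -4, counted from the RefSeq start. In Irf2 they were an ISRE at -241 to -232, a GAS at -224 to -216 and a kB motif at -17 to -8. In Irf8 there were 2 GAS matches, at -171 to -163 and -153 to -145. No match lay in the windows of Irf7 and Irf9, nor in those of Irf3, Irf4 and Irf5, which says only that these letters are not in those 300 bases. The Irf9 windows, of which the first is shown in part, lay inside the GENCODE M21 gene, which starts at 55603571. The bases before that start were not searched for Irf9. Of 32851 RefSeq windows of the same length, 3.44% held the ISRE letters, 8.3% the GAS letters and 4.51% the kB motif. Matches stood in a gene that was called with CCL26 in both fits (Irf1), in a gene called only with 8 libraries (Irf2) and in a gene called in neither (Irf8). On GRCm38, the GENCODE M21 genes are at chr11:53770014-53778374 for Irf1, chr8:46739732-46847458 for Irf2, chr7:141262706-141266481 on the minus strand for Irf7, chr8:120736358-120756694 for Irf8 and chr14:55603571-55610030 for Irf9, all protein-coding and, except Irf7, on the plus strand.

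The genes around the family were grouped by role. For CCL26 against BSA, 0.387% of all genes were called higher and 0.0465% lower with 9 libraries. With 8 libraries these shares were 9.74% and 9.26%, to be set beside each list count below. The 21 interferon genes listed were not analysed here. The first list held the sensors, adaptors and kinases upstream of IRF3, IRF5 and IRF7. Of its 27 tested genes, 1 was higher and 0 lower for CCL26 against BSA in the fit of 9 libraries. In the fit of 8, 10 were higher and 2 lower, and the median log2 fold change was 0.14 in both. The gene called with 9 libraries was Ticam2, the bridging adaptor of TLR4, at 70.9 ± 3.73 CPM with CCL26 and 40.9 ± 2.03 CPM with BSA (SD, n = 3 each; log2 fold change 0.79, edgeR adjusted p = 0.0432). Ddx58, which encodes the cytosolic RNA sensor RIG-I, averaged 105 ± 4.49 CPM with CCL26 and 53.7 ± 2.14 CPM with BSA (0.96, edgeR adjusted p = 0.055 with 9 libraries and 3.92e-11 with 8).

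Of the 11 interferon receptor, JAK and STAT genes, 1 was higher and 0 lower with 9 libraries, and 7 were higher and 1 lower with 8 (median log2 fold change 0.22 in both). Stat2, the partner of IRF9 in ISGF3, had 116, 112 and 111 CPM in CCL26 libraries, 37.3, 54.0 and 60.0 CPM in CX3CL1 libraries and 55.8, 55.1 and 51.2 CPM in BSA libraries. Its groups for CCL26 and BSA were far apart, with a log2 fold change of 1.06 (SE 0.171, edgeR adjusted p = 0.0432 with 9 libraries and 6.61e-12 with 8).

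Of 22 partners and cofactors of the IRFs, 0 were called with 9 libraries, and 10 were higher and 2 lower with 8 (median 0.11 and 0.12). Of all genes, 9.74% were called higher and 9.26% lower with 8 libraries. Batf, the partner of IRF4 and IRF8 on composite sites, averaged 43.9 ± 1.55 CPM with CCL26 and 23.1 ± 3.29 CPM with BSA (log2 fold change 0.93, edgeR adjusted p = 0.376 with 9 libraries and 1.51e-07 with 8). Of 20 regulators of IRF protein stability and activity, 2 were higher and 0 lower with 9 libraries, and 6 were higher and 2 lower with 8 (median 0.05 in both). The 2 were Usp18, which restrains interferon receptor signalling, at 44.7 ± 6.5 CPM with CCL26 and 18.5 ± 0.699 CPM with BSA (1.27, edgeR adjusted p = 0.0146), and Trim21, a ubiquitin ligase that acts on IRFs, at 26.2 ± 1.92 CPM with CCL26 and 11.7 ± 2.58 CPM with BSA (1.16, edgeR adjusted p = 0.0362).

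Known targets of each factor were counted in the same way, with no test between lists. The shares of all genes called were 9.74% higher and 9.26% lower with 8 libraries, and 0.387% and 0.0465% with 9. Of 30 ISGF3 targets, 12 were higher and 0 lower with CCL26 in the fit of 9 libraries and 26 were higher and 0 lower in the fit of 8, with medians of the log2 fold change of 1.20 and 1.21. Rsad2, the antiviral viperin, averaged 366 ± 10.2 CPM with CCL26 and 73.1 ± 1.07 CPM with BSA, a log2 fold change of 2.32 (SE 0.202, edgeR adjusted p = 0.00213). Ifit1, an RNA-binding antiviral protein, averaged 105 ± 8.69 CPM with CCL26 and 20.4 ± 2.56 CPM with BSA (2.36, SE 0.168, edgeR adjusted p = 0.000793). Of 8 first targets of IRF3, some of them also ISGF3 targets, 3 were higher with 9 libraries and 7 with 8, none lower, with a median of 1.88 in both. Cxcl10, a chemokine for T cells, averaged 75.7 ± 3.76 CPM with CCL26 and 6.83 ± 0.983 CPM with BSA (3.47, SE 0.229, edgeR adjusted p = 0.000713), while the level of Irf3 itself overlapped between these groups.

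Of 27 IRF1 targets, 4 were higher and 0 lower with 9 libraries, and 13 were higher and 2 lower with 8 (median 0.44 in both). Those called with 9 libraries included a pair of guanylate-binding proteins of the cell's defence against microbes. Gbp2 averaged 31.2 ± 1.51 CPM with CCL26 and 13.5 ± 1.46 CPM with BSA (1.20, edgeR adjusted p = 0.0159), and Gbp7 averaged 13.4 ± 2.31 CPM with CCL26 and 3.94 ± 0.912 CPM with BSA (1.77, edgeR adjusted p = 0.0241). The macrophage gene for inducible nitric oxide synthase, Nos2, averaged 9.6 ± 0.765 CPM with CCL26 and 3.1 ± 0.689 CPM with BSA (1.63, edgeR adjusted p = 0.0445). Of 9 IRF5 targets, 2 were higher with 9 libraries and 6 with 8, none lower (median 0.86 and 0.87). They were the cytokine Tnf at 75.7 ± 5.56 CPM with CCL26 and 39.7 ± 1.48 CPM with BSA (0.93, edgeR adjusted p = 0.0205) and the neutrophil chemokine Cxcl2 at 115 ± 9.58 CPM with CCL26 and 55.8 ± 2.34 CPM with BSA (1.05, edgeR adjusted p = 0.0344).

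Of 16 IRF8 and PU.1 targets, 0 were called with 9 libraries, and 4 were higher and 5 lower with 8 (median -0.02 and -0.01). Of the IRF4 targets of alternative activation, 1 of 8 was higher and 0 lower with 9 libraries, and 2 of 9 were higher and 1 lower with 8 (median 0.14 and 0.09). The gene called with 9 libraries was Cd83, a marker of activated antigen-presenting cells, at 68.4 ± 3.04 CPM with CCL26 and 28.4 ± 4.14 CPM with BSA (1.27, edgeR adjusted p = 0.0344). With CX3CL1 against BSA, no gene of these lists was called with 9 libraries, and 1 partner gene was lower with 8. Most list calls with 9 libraries were lost when a single library was left out, whichever of several it was. Of the 23 list genes called, 5 (Ifit1, Ifit2, Ifit3, Rsad2 and Cxcl10) were called in each of the 9 fits that left out a single library, with adjusted p at most 0.0448. The other genes lost the call without at least 4 of those libraries in turn, controls among them, such as Stat2 (adjusted p up to 0.317) and Nos2 (up to 0.306). When a library other than CX3CL1 replicate 1 was left out, 4 to 13 ISGF3 targets, 0 to 4 IRF1 targets, 3 first IRF3 targets, 0 to 2 IRF5 targets and 0 or 1 genes of each further list were called higher. In those same fits 9 to 45 genes of the whole table were called higher, where 13239 to 13328 were tested. The lists share genes and were chosen with earlier results of these data known, so their counts are descriptions.

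**Figure D4:**
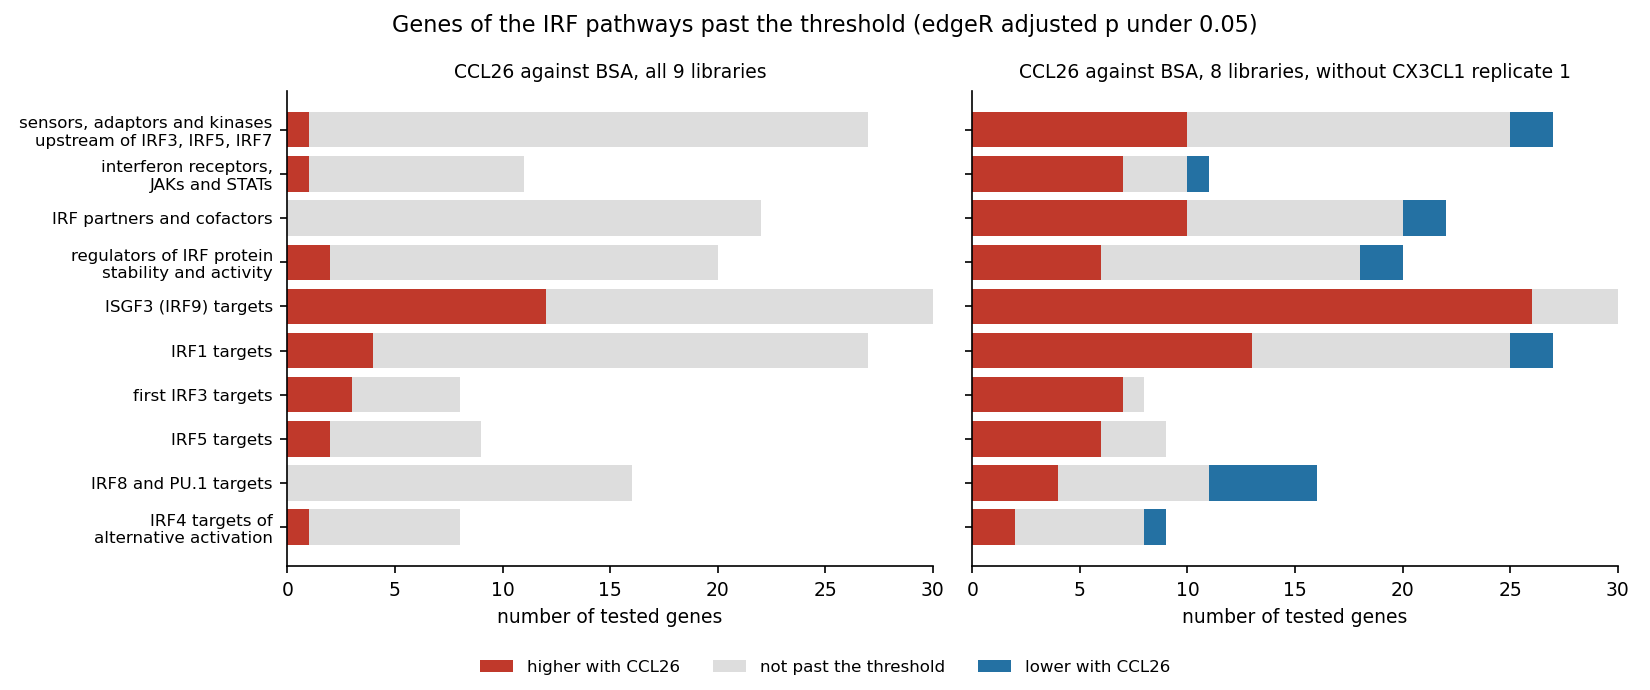
Bars give the number of tested genes of each list around the IRF family (rows) that were higher for CCL26 against BSA (red), lower (blue) or not past the threshold (grey), with all 9 libraries at left and 8 at right. ISGF3 targets hold the most genes called higher in both panels, 12 of 30 and 26 of 30, and IRF8 and PU.1 targets hold 0 of 16 at left and 4 higher with 5 lower at right.

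Some markers of cell type moved along with these groups, and their part in the IRF values was not tested. Sums of markers are in CPM on plain totals. In the fit of 8 libraries 6 of the 8 macrophage markers were lower with CCL26, compared with BSA, and none higher (0 of 8 with 9 libraries), with a median log2 fold change of -0.21. Of all genes, 9.26% were called lower and 9.74% higher in the fit of 8. Granulocyte and precursor markers, 7 of 8 in the table, summed to 50.7 to 54.0 CPM in CCL26 libraries, 46.3 to 125 in CX3CL1 libraries and 39.3 to 41.3 in BSA libraries; S100a8 and S100a9 were higher with CCL26 in the fit of 8, and CX3CL1 replicate 1 had the 125 CPM. Of 5 inflammatory monocyte markers 1, F13a1, was lower with CCL26 in the fit of 8, and their sum was 68.0 to 75.8 CPM in CCL26 libraries, 48.3 to 77.7 in CX3CL1 libraries and 76.1 to 84.7 in BSA libraries. The sums in CX3CL1 replicate 1 were also the highest for dendritic cell markers (14.8 CPM, against 9.31 to 12.2 in the other 8 libraries) and for B and plasma cell markers (180 CPM, against 98.2 to 109). The B cell gene Cd79b was lower with CCL26 in the fit of 8. Mast cell and basophil markers, 2 of 6 in the table, summed to 2.67 to 3.68 CPM in CCL26 libraries, 0.675 to 1.64 in CX3CL1 libraries and 1.58 to 1.75 in BSA libraries, and Kit was higher with CCL26 in the fit of 8. Dendritic cells and B cells are known to express Irf8 or Irf4. The B cell genes Ms4a1 and Pax5 and the dendritic cell genes Clec9a, Siglech and Cd209a were not analysed here.

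The genes whose pattern over the 9 libraries was most like that of each member were found by the root mean square difference of log2(CPM + 0.5), each gene set to its own BSA mean, among 9012 genes outside the family. For Irf1 they were Cxcl2 (0.085), Relb (0.102), an NF-kB subunit, and Mtmr14 (0.104), and for Irf7 they were Mtmr14 (0.104), the death receptor Fas (0.106) and Batf (0.117). For Irf9 they were Gas7 (0.125), Dyrk2 (0.143) and Cd274 (0.156), the gene of PD-L1, a ligand that restrains T cells. For Irf2 the differences were 0.107 for Smad5 and 0.109 each for Slc25a22 and Mocs1, and for Irf3 0.0732 for Aimp2, 0.0777 for Igbp1 and 0.0883 for Dcaf13. Irf5 and Irf8, which varied least, had the closest neighbours, Ddx23 (0.0391), Mroh1 (0.0396) and Asb1 (0.0419) for Irf5 and Vapb (0.0314), Abcf3 (0.0475) and Hk3 (0.0483) for Irf8. Irf4 had none close, with 0.355 for Kptn and Pex7 and 0.358 for Mfsd4b4. All of these values are descriptions over the same 9 libraries, whose differences in depth and in replicate quality the genes share.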

How the data were processed

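Messenger RNA was sequenced from 9 libraries, and the authors deposited a table of raw counts per gene. Per the submitters' processing notes, STAR, featureCounts and MultiQC were used with GRCm38 (mm10); their roles, versions and the strand setting are not given in the sources used here. No column was left unmatched, and 1333 genes without a symbol were named from GENCODE M21. Genes were filtered with filterByExpr and scaled by TMM; all 9 libraries were fitted together with group as the only term and tested with edgeR 4.0.16 (R 4.3.3, quasi-likelihood F test). CPM values of single genes use TMM-scaled totals, and marker sums use plain totals. Intervals use edgeR's total degrees of freedom. Total counts were 16923982 to 23198324 per library; Irf4 had few counts, which also varied widely between replicates. No pair of replicates agreed within sampling noise: chi-square per degree of freedom was 284 and 336 for pairs with CX3CL1 replicate 1 and 3.91 to 8.65 for the others. The members, gene lists and tests were chosen with earlier results of these data known. The text names every member, the 3 genes most like each in pattern, averaging at least 5 CPM, and up to 3 genes of each list with the smallest p for CCL26 against BSA; any other gene is a cell type marker or overlaps a member. Some further genes are not reported here. Alternatives were other scalings, filters, tools (limma 3.58.1, DESeq2 1.42.0), a block and left-out libraries. Fits were tested on simulated counts.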

Additional observations from a re-analysis of the deposited data

How the results depend on the processing

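Across 30 alternatives the log2 fold changes for CCL26 against BSA of Irf1, Irf7, Irf9, Irf2 and Irf5 kept their direction, and they passed the threshold in 21, 16, 16, 11 and 14. These 30 are not independent. CX3CL1 replicate 1 is absent from 9 left-out fits, from 4 fits added after the data were seen, and from the 6 libraries compared. With single libraries left out, Irf1 passed in 2 of 9 fits. Irf7, Irf9, Irf2 and Irf5 passed in 1 of 9, the fit without CX3CL1 replicate 1. The count of IRF genes called for CCL26 against BSA was 0 with upper quartile scaling, 3 with DESeq2, 5 with limma-voom and library quality weights, 5 with only the 6 libraries compared, and 0 to 5 with libraries left out. The count of all genes called was 248 with DESeq2, 2479 with limma-voom, 2417 with the 6 libraries and 9 to 2734 with libraries left out. For CCL26 against CX3CL1, DESeq2 called 2 IRF genes and 251 genes, limma-voom 3 and 1340, the 6 libraries 0 and 4, and fits with libraries left out 0 to 3 and 10 to 1720. For CX3CL1 against BSA no alternative called an IRF gene, limma-voom called 29 genes, and left-out libraries gave 0 to 187. The cause of these differences was not tested. Replicate numbers did not pair the libraries (correlations of deviations from -0.0782 to 0.0511); with the replicate block 0 IRF genes and 14 genes were called for CCL26 against BSA (Irf1 adjusted p = 0.15) and 11 genes for CCL26 against CX3CL1. The sign turned only for fold changes that were not called in any fit. For CX3CL1 against BSA these were Irf5 (-0.000743) and Irf9 (-0.00115) with no filter, Irf1 (-0.00563), Irf2 (0.0266) and Irf8 (-0.0571) with limma-voom, and Irf5 (-0.000158) with the replicate block; for CCL26 against CX3CL1 they were Irf8 (-0.0264) with upper quartile scaling and Irf3 (0.048) with limma-voom. With libraries left out, CCL26 against BSA ran from -0.0422 to 0.141 for Irf3, -0.299 to 0.839 for Irf4 and -0.0133 to 0.109 for Irf8. CX3CL1 against BSA ran from -0.0501 to 0.233 for Irf1, -0.307 to 0.169 for Irf2, -0.114 to 0.59 for Irf3, -0.0668 to 0.136 for Irf5, -0.031 to 0.498 for Irf7, -0.0908 to 0.0723 for Irf8 and -0.107 to 0.209 for Irf9. CCL26 against CX3CL1 ran from -0.54 to 0.169 for Irf3 and -0.0397 to 0.171 for Irf8. Depth limits Irf4 most, which the filter of 5 CPM in 3 libraries removes.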
